A study of Mus musculus with 5 samples.

Results

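Transcripts of 6 genes of the renin-angiotensin system, Agt, Ren1, Ace, Agtr1a, Enpep and Mme, were followed across the cells of the mouse kidney during and after obstruction of its ureter. The genes were taken by symbol from the gene lists of 4 droplet libraries; all 6 symbols were found among 28692 gene identifiers, and 814 Agt, 946 Ren1, 807 Ace, 1111 Agtr1a, 1848 Enpep and 2707 Mme molecules were counted over all deposited cells. Molecules are given as unique molecular identifiers (UMIs), each of which stands for 1 captured transcript. The animals were C57/BL6 mice aged 8 weeks, and the model was unilateral ureteric obstruction (UUO), a ligation of the ureter of 1 kidney, which can be reversed. One library came from sham surgery (day 0), others from 2 and 7 days of UUO, and the last from reversed UUO, for which the ligature had been off for 7 days (experimental day 14). Kidneys of 3 mice were pooled in every library and each group had 1 droplet library, so no test between groups was possible and every interval below is a 95% interval for counting error alone. A further Smart-seq2 sample held 768 wells in which the time points were mixed.

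In the renin-angiotensin system the protease renin, encoded by Ren1, is released by granular cells of the juxtaglomerular arteriole and cuts angiotensinogen, the Agt product, to angiotensin I. Angiotensin-converting enzyme (Ace) turns this peptide into angiotensin II, which acts mainly through the type 1a receptor (Agtr1a) on vessels, mesangial cells and tubules. The aminopeptidase A encoded by Enpep trims angiotensin II further, and neprilysin (Mme) degrades angiotensin I and other peptides. Within the kidney, angiotensinogen and the peptidases of the brush border are known from the proximal tubule.

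In the GRCm38 annotation, all 6 are protein-coding: Agt at chr8:124556534-124569706 and Enpep at chr3:129269175-129332720 on the minus strand, and Ren1 at chr1:133350510-133360325, Ace at chr11:105967945-105989964, Agtr1a at chr13:30336441-30382867 and Mme at chr3:63241537-63386030 on the plus strand.

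Cells were assigned by marker genes, with none of the 6 genes among the markers, and a cell that reached several cell types was set aside. Of 16876 deposited cells, 13332 passed the filters; 656 of them reached several cell types and 1048 reached none. Proximal tubule cells numbered 2921 in sham, 506 at day 2, 151 at day 7 and 1078 in the reversed library, or 78.0%, 23.4%, 3.52% and 34.3% of the cells kept. Median UMIs per cell ranged from 1807 nuclear UMIs in sham to 5478 at day 2, and the median mitochondrial share of the deposited cells from 40.6% in sham to 3.00% at day 7. Levels are therefore given as UMIs per 1000000 nuclear UMIs (CPM), with mitochondrial transcripts left out of the total. Proximal tubule marker transcripts also appeared outside the proximal tubule, at 33.2 UMIs per 10000 in sham endothelial cells but 3.64 at day 2, 3.34 at day 7 and 13.4 in the reversed library. From 16 to 39 cell barcodes were shared between any 2 libraries. Near the limit of the proximal tubule, 195 of 3016 sham cells that reached the proximal tubule list had exactly the 8 markers required, and 118 cells had 1 fewer.

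**Figure D1:**
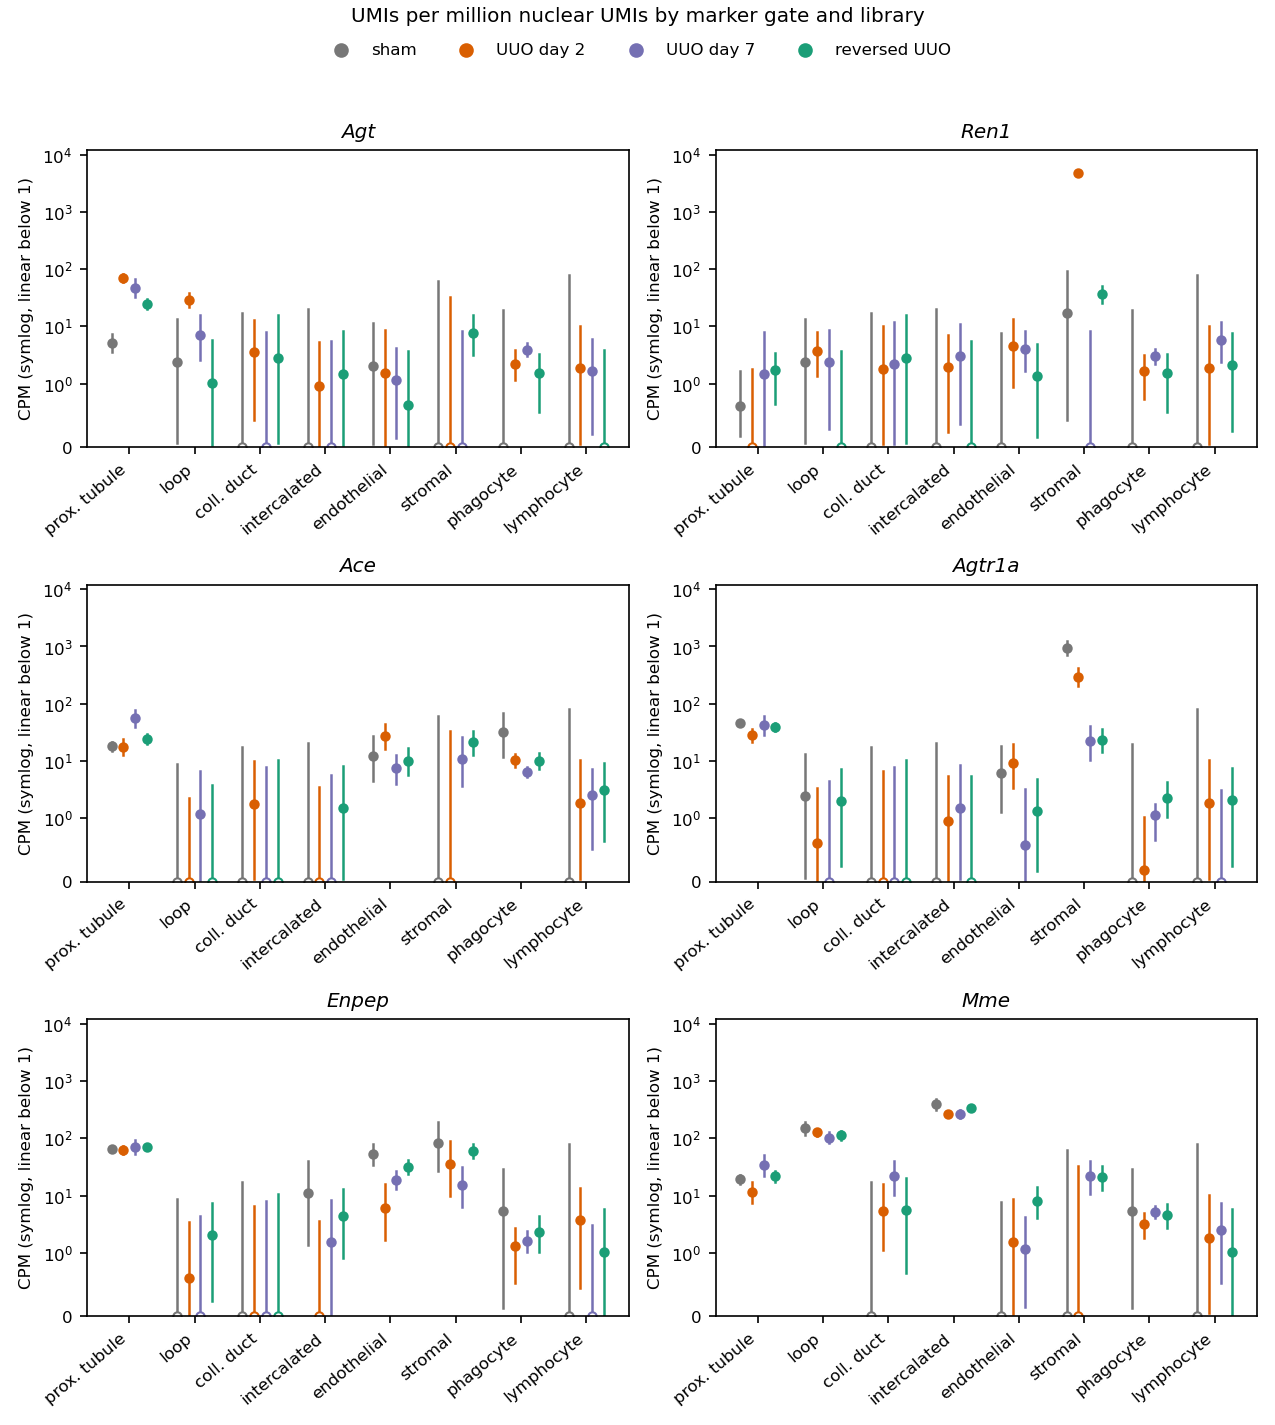
Levels of the 6 genes (CPM, symmetric log axis that is linear below 1) in 8 cell groups and 4 libraries. Points are library sums, bars are exact Poisson 95% intervals, and open points mark 0 UMIs; Agt stands highest in the proximal tubule at 70.5 CPM at day 2, Ren1 in stromal cells at 4721 CPM at day 2 and Mme in intercalated cells at 393 CPM in sham.

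Angiotensinogen transcripts were scarce in the sham proximal tubule and 13.7-fold as abundant 2 days after obstruction. Agt stood at 5.15 CPM in sham (32 UMIs, 3.53 to 7.28), 70.5 CPM at day 2 (146 UMIs, 59.5 to 82.9), 47.5 CPM at day 7 (33 UMIs, 32.7 to 66.7) and 24.6 CPM in the reversed library (102 UMIs, 20.1 to 29.9). The later 3 libraries lay above sham with no overlap, and the reversed library lay between sham and day 7. The fold was 13.7 for day 2 against sham (9.27 to 20.7), and 4.77 for the reversed library against sham (3.18 to 7.34). Both folds are the ratio of CPM, and on the log2 scale with 1 CPM added they were 3.54 (3.04 to 4.04) and 2.06 (1.54 to 2.58). From day 2 to day 7 the log2 ratio was -0.56 (-1.14 to -0.02), and from day 7 to reversal -0.92 (-1.49 to -0.32).

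A gene was called different when its log2 ratio was at least 1 in size, or 2-fold, with at least 30 UMIs in the pair of libraries together. Of the 5 genes with enough UMIs in the proximal tubule, Agt alone was past that limit at day 2 and was higher; among all 9742 genes tested there, 6% were higher past it, 2.41% lower and 8.42% in either direction. Against sham the reversed library again had Agt alone past the limit, with 7.06% of 10375 genes higher, 0.308% lower and 7.36% in either direction. Ren1 had too few UMIs in the proximal tubule for this comparison.

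The Agt difference was present in both segments. Proximal tubule cells were split into S1-S2 (convoluted and early straight) and S3 (late straight) by which of 2 marker lists had more UMIs. In S1-S2 cells Agt was 2.75 CPM in sham, 63.7 at day 2, 32.1 at day 7 and 20.7 in the reversed library. The day 2 level of S1-S2 was 23.2-fold that of sham (12.9 to 45.0). In S3 cells it was 14.5, 102, 51.1 and 36.6 CPM in the same order, and the day 2 level was 7.08-fold that of sham (3.86 to 13.6). S3 cells held more Agt than S1-S2 cells in sham, 5.26-fold (2.37 to 11.9), and the ratio was 1.61 at day 2 (1.08 to 2.36) and 1.77 in the reversed library (1.10 to 2.79). At day 7 the ratio of 1.60 had an interval that included 1 (0.66 to 4.42).

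At equal depth a larger share of cells carried an Agt UMI at day 2 and at day 7, and the reversed interval overlapped that of sham. After every cell was thinned to 1000 nuclear UMIs, 0.680% of 2500 sham cells had an Agt UMI (0.397 to 1.09), 6.92% of 506 at day 2 (4.86 to 9.49), 5.96% of 151 at day 7 (2.76 to 11.0) and 1.67% of 1078 in the reversed library (0.993 to 2.63). No lymphocyte had one after thinning in any library. At that depth this allows a share with a UMI of up to 14.3% of 21 lymphocytes in sham and 2.14% of 140 at day 2. It allows up to 0.926% of 324 at day 7 and 1.09% of 274 in the reversed library. The sham limit lay above the share of the sham proximal tubule. The sham, day 2, day 7 and reversed medians of 1698, 3284, 3501 and 3064 nuclear UMIs per proximal tubule cell were unequal, and 421 sham cells were shallower than 1000 UMIs and were left out. Without thinning the shares were 0.993%, 22.3%, 14.6% and 7.33%.

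Loop of Henle cells also held Agt, mostly at day 2. They had 1 UMI in 165 sham cells, 48 UMIs in 225 cells at day 2 (29.3 CPM, 21.6 to 38.9), 6 UMIs in 99 cells at day 7 and 1 UMI in 191 cells in the reversed library. Proximal tubule markers in the same loop cells made up 35.6 UMIs per 10000 in sham and 3.07 at day 2, and the part of proximal tubule RNA was not tested. The same loop cells carried 47.1 injured tubule marker UMIs per 10000 at day 2 against 0.818 in sham, and the part of that in the Agt level was not tested. Cells that reached no cell type held Agt at 37.3 CPM in sham (15 UMIs, 20.9 to 61.6), 67.4 at day 2 (83 UMIs, 53.7 to 83.5), 13.9 at day 7 (22 UMIs, 8.70 to 21.0) and 31.9 in the reversed library (42 UMIs, 23.0 to 43.1). The sham level of these cells lay above that of the sham proximal tubule with no overlap, and their sham and day 2 intervals overlapped. Among phagocytes, 59 Agt UMIs lay in 26 of 2208 cells at day 7, with 8 in the richest cell, and the part of proximal tubule RNA in them was not tested.

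Fgb, which encodes the beta chain of the plasma protein fibrinogen, was the gene whose pattern most resembled that of Agt. Likeness was measured as Pearson's r of log2(CPM + 1) over 34 combinations of cell type and library with at least 30 cells, among 13468 genes; these points share libraries and depth, and r is a description. For Agt it was 0.81 with Fgb, 0.81 with Galnt14, an enzyme of mucin-type glycosylation, and 0.80 with Rtn4r, the Nogo receptor. Fgb in the proximal tubule was 5.32 CPM in sham, 180 at day 2, 43.2 at day 7 and 8.68 in the reversed library. Fgg and Fga, which encode the other fibrinogen chains, were 20.5 and 14.0 CPM in sham and 826 and 342 CPM at day 2; they were looked up because Fgb had come out of the ranking. Galnt14 had another course in the proximal tubule, at 55.7, 28.0, 54.7 and 61.7 CPM, with its lowest level where Agt was highest.

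The promoters of Agt and Fgb are shown because the levels of both genes were higher in the obstructed proximal tubule. Sequences are the RefSeq windows of GRCm38.p6, from 250 bases before to 50 bases after the start of the gene, 5′ to 3′ on the strand of the gene. Agt lies at chr8:124569657-124569956 on the minus strand and Fgb at chr3:83049814-83050113 on the minus strand. Capitals mark matches on either strand to TATAAA (the TATA box), TTCNNNGAA (the form bound by STAT factors) and TTGNNCAA (a loose form of the C/EBP site).
Agt: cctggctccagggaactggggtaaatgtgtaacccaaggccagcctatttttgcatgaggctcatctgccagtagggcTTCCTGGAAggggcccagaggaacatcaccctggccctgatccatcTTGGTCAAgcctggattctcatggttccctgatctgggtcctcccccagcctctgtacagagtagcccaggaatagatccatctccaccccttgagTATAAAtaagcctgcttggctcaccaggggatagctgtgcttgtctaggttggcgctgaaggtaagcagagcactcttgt
Fgb: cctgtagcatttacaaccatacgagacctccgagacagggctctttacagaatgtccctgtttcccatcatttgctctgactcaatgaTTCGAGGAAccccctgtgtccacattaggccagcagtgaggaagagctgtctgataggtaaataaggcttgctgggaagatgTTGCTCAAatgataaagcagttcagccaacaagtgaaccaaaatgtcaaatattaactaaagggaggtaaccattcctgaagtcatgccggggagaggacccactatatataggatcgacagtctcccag
The Agt window held a TATAAA at position -30, a TTCNNNGAA at -172 and a TTGNNCAA at -126, each counted to the first base of the match from the start of the gene. The Fgb window held a TTCNNNGAA at -162 and a TTGNNCAA at -80. Over the 32851 RefSeq windows of the same length, 13.6% had TATAAA, 8.30% TTCNNNGAA and 6.40% TTGNNCAA. Of the 5 genes of the set with a window, Ace, Agt, Enpep and Ren1 had TATAAA, Agt, Enpep and Mme had TTCNNNGAA, and Agt had TTGNNCAA. The last motif was written in its present form after the sequences had been seen, and a match is a description of letters only.

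**Figure D2:**
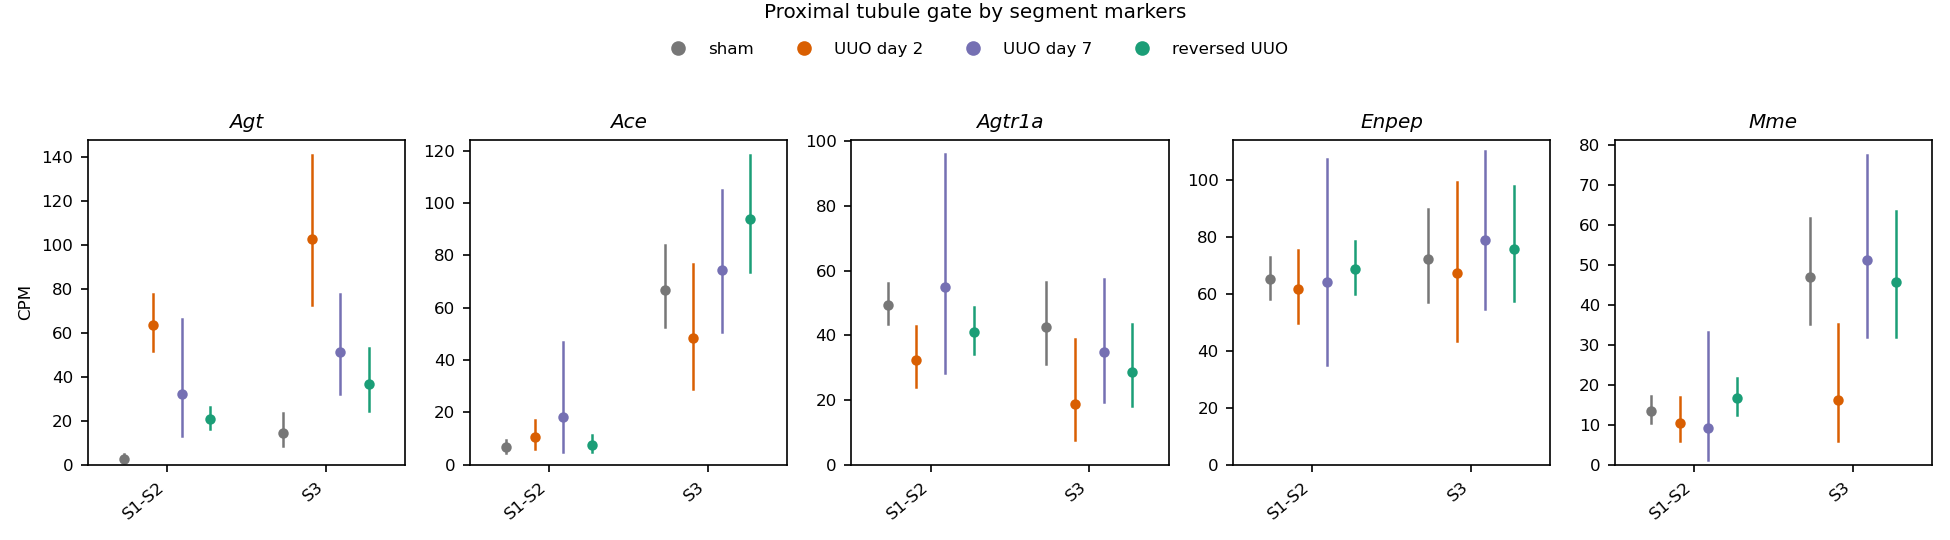
Levels of 5 genes (CPM, linear axes from 0) in proximal tubule cells split by S1-S2 and S3 markers, with 4 libraries each; points are library sums and bars exact Poisson 95% intervals. Agt is higher in the day 2, day 7 and reversed libraries than in sham in both segments, Ace is 4.06 to 12.5 times higher in S3 than in S1-S2, and Enpep stays between 61.7 and 79.0 CPM throughout.

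At day 2 and in the reversed library a handful of cells carried most of the renin transcripts, while in sham and at day 7 nearly all cells with Ren1 had a single UMI. Among the cells kept, Ren1 had 6 UMIs in sham, 562 at day 2, 89 at day 7 and 209 in the reversed library. At day 2, 6 cells with 3 or more UMIs held 94.1% of them, and the richest cell alone held 353, or 3.69% of its nuclear UMIs. In the reversed library 3 cells held 88.0%, with 153 in the richest. Sham had 6 cells with 1 UMI each and day 7 had 82, and the richest day 7 cell had 3. Outside the rich cells Ren1 stood at 0.700 CPM in sham, 2.23 at day 2, 3.16 at day 7 and 1.47 in the reversed library.

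Of the 6 rich cells of day 2, 5 were mural stromal cells, the class of pericytes, smooth muscle and mesangial cells. They held 353, 104, 43, 23 and 3 Ren1 UMIs, from 19 to 35 UMIs of the pericyte gene Rgs5 and from 24 to 213 UMIs of smooth muscle actin, Acta2. Akr1b7, an aldose reductase family gene known as a marker of renin cells, had UMIs in 4 of these 5 cells. Akr1b7 was not confined to rich cells: 8 of 14 day 2 mural cells and 4 of 16 sham mural cells had it. The sham mural cells had 0 Ren1 UMIs. The sixth cell, with 3 Ren1 UMIs, reached the proximal tubule and endothelial lists together and had none of Rgs5, Acta2 or Akr1b7. In the reversed library, 2 rich cells with 23 and 8 Ren1 UMIs were mural, with 31 and 29 Rgs5 UMIs and 0 and 3 Akr1b7 UMIs. The richest cell of that library, with 153, reached the endothelial list with 14 markers and the stromal list with 6, and so was outside the stromal sum. It had 1 Akr1b7 UMI.

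In the stromal cells as a whole Ren1 was 16.8 CPM in sham (1 UMI in 18 cells), 4721 CPM at day 2 (528 UMIs in 19 cells, 4327 to 5142), 0 of 63 cells at day 7, and 36.7 CPM in the reversed library (33 UMIs in 109 cells, 25.3 to 51.5). The day 7 count of 0 allows up to 6.60 CPM. These levels rest on how many renin cells each library caught, so their intervals, which cover counting error of UMIs, do not cover that chance. Ren1 was past the 2-fold limit in stromal cells in each of the 4 comparisons. It was higher at day 2 against sham, where 12.2% of 959 genes were higher, 10.2% lower and 22.4% in either direction, and lower at day 7 against day 2, where 16.7% of 3130 were higher, 8.85% lower and 25.5% in either direction. It was higher again from day 7 to reversal, as was Enpep among 3 tested, where 7.44% of 6455 genes were higher, 4.77% lower and 12.2% in either direction, and higher in the reversed library than in sham, where 23.1% of 5172 were higher, 14% lower and 37.1% in either direction. That last call rested on 1 sham UMI, whose interval of 0.426 to 93.7 CPM contained the whole reversed interval. Further day 2 cells with 51 and 5 Ren1 UMIs had been removed as likely doublets. Outside the stromal cells Ren1 ranged from 0 to 5.85 CPM in the proximal tubule, loop, endothelial, phagocyte and lymphocyte groups of all 4 libraries.

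**Figure D3:**
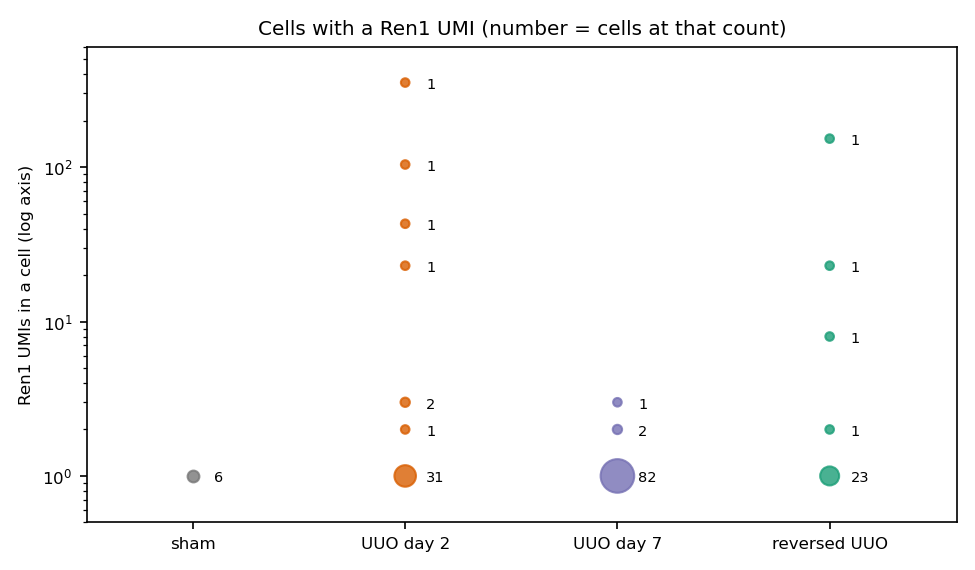
Ren1 UMIs per cell on a log axis in the 4 libraries, for cells with at least 1 UMI; the printed number is how many cells had that count and point size grows with it. At day 2 the richest cell has 353 UMIs and in the reversed library 153, while the richest sham cell has 1 and the richest day 7 cell 3.

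Converting enzyme was highest in patrolling monocytes, and was also found in the S3 proximal tubule, arterial endothelium and fibroblasts. In the whole proximal tubule Ace was 18.0 CPM in sham (112 UMIs, 14.9 to 21.7), 17.9 at day 2 (37 UMIs, 12.6 to 24.6), 56.1 at day 7 (39 UMIs, 39.9 to 76.7) and 24.6 in the reversed library (102 UMIs, 20.1 to 29.9). Day 7 stood above the other libraries with no overlap of intervals. The log2 ratio of day 7 to day 2 was 1.60 (0.93 to 2.26) and that of the reversed library to day 7 was -1.16 (-1.69 to -0.60). Ace and Mme, 2 of the 5 genes tested, were higher past 2-fold at day 7 against day 2, where 5.03% of 7578 genes were higher, 3.26% lower and 8.29% in either direction. Ace alone of the 5 was lower past it from day 7 to reversal, where 4.74% of 9285 genes were higher, 4.77% lower and 9.51% in either direction.

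Within S3 the Ace intervals of the 4 libraries overlapped one another. In S3 cells Ace was 66.9 CPM in sham (52.6 to 84.0), 48.6 at day 2 (28.8 to 76.7), 74.4 at day 7 (50.9 to 105) and 94.1 in the reversed library (73.6 to 118). In S1-S2 cells it was 6.56, 10.4, 18.3 and 7.51 CPM, the day 7 value resting on 4 UMIs. Within S3 the log2 ratio of day 7 to day 2 was 0.61 with an interval that included 0 (-0.26 to 1.51). That of the reversed library to sham in S3 was 0.48 with an interval just above 0 (0.003 to 0.97), short of 2-fold. S3 cells made up 54.3% of the proximal tubule cells at day 7, against 16.6% in sham, 14.2% at day 2 and 17.9% in the reversed library. The ratio of S3 to S1-S2 was 10.2 in sham (6.63 to 16.1), 4.67 at day 2 (2.25 to 9.79), 4.06 at day 7 (1.44 to 15.8) and 12.5 in the reversed library (7.79 to 20.8), and none of the 4 intervals included 1. The segment split itself moved with obstruction: Slc7a13, an S3 transporter and one of the markers, was 218 CPM in sham, 12.1 at day 2, 298 at day 7 and 116 in the reversed library in the whole proximal tubule.

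Patrolling monocytes, which crawl along the vessel wall, had the highest Ace level of any cell group. Cells with 5 or more of 9 patrolling markers had Ace at 306 CPM in sham (5 UMIs in 7 cells, 99.4 to 715), 116 at day 2 (28 UMIs in 29 cells, 77.0 to 167), 157 at day 7 (50 UMIs in 42 cells, 117 to 207) and 176 in the reversed library (20 UMIs in 17 cells, 108 to 272). With 1 more marker required the level was 379 CPM in 15 cells at day 2 and 352 CPM in 22 cells at day 7. The 4 intervals at 5 or more markers overlapped one another, and the log2 ratio of day 2 to sham was -1.39 (-2.78 to 0.33). The makeup of this group differed between libraries. Its macrophage marker UMIs per 10000 were 6.74 in sham, 51.0 at day 2, 39.5 at day 7 and 33.5 in the reversed library. The part of this in the Ace level was not tested. Ly6c2-high monocytes, the inflammatory class, had 0 UMIs in 4 sham cells, 9.28 CPM at day 2 (4.24 to 17.6), 17.4 at day 7 (9.76 to 28.8) and 34.2 in the reversed library (12.5 to 74.4). Macrophages stood lower, at 2.01 CPM at day 2, 1.42 at day 7 and 3.28 in the reversed library, with 1 UMI in 23 sham cells. Lymphocytes were taken as a stand-in for free RNA, whose share of Ace was not measured. They had 1.84, 2.51 and 3.11 CPM in the obstructed and reversed libraries and 0 UMIs in 21 sham cells. Their intervals overlapped those of the macrophages in all 4 libraries.

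Over all phagocytes Ace was 31.7 CPM in sham (6 UMIs in 53 cells), 10.2 at day 2 (55 UMIs), 6.41 at day 7 (97 UMIs) and 10.1 in the reversed library (40 UMIs). Of the 6 sham UMIs, 5 lay in the 7 cells with the patrolling list, so both ratios to sham rest on few molecules. Ace had a log2 ratio to sham of -1.55 at day 2 (-2.72 to -0.12). It was the 1 gene of the set with enough UMIs for that comparison and was lower past 2-fold, where 19.7% of 8824 genes were higher, 9.18% lower and 28.9% in either direction. The same held for the reversed library against sham, where 19% of 8638 genes were higher, 5.33% lower and 24.4% in either direction. None of 5 genes tested passed from day 2 to day 7 (10.1% of 11782 genes higher, 2.69% lower, 12.8% in either direction) or from day 7 to reversal (1.78% of 11839 higher, 1.56% lower, 3.34% in either direction). Cells with the patrolling list were 7 of 53 phagocytes in sham, 29 of 502 at day 2, 42 of 2208 at day 7 and 17 of 536 in the reversed library. After thinning, 28.6% of 7 sham, 13.8% of 29 day 2, 26.2% of 42 day 7 and 35.3% of 17 reversed patrolling cells had an Ace UMI, against 0 of 21, 0 of 140 and 0 of 324 lymphocytes in sham, at day 2 and at day 7 and 2 of 274 in the reversed library. The 0 of 324 allows up to 0.926% of cells with an Ace UMI at the thinned depth, and the 0 of 21 and 0 of 140 allow wider shares. A further 31 Ace UMIs at day 7 lay in 41 cells that reached the phagocyte and neutrophil lists together.

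**Figure D4:**
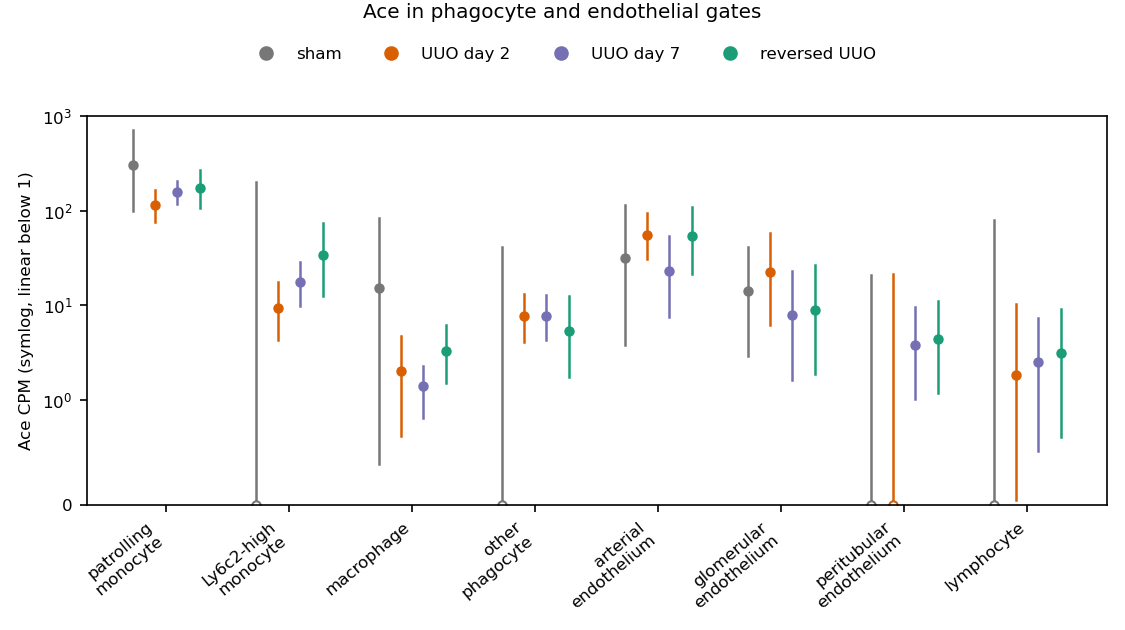
Ace level (CPM, symmetric log axis that is linear below 1) in monocyte, macrophage, endothelial and lymphocyte groups of the 4 libraries, with exact Poisson 95% intervals; open points mark 0 UMIs. Patrolling monocytes lie between 116 and 306 CPM, above macrophages at 1.42 to 15.2 CPM, and arterial endothelium lies between 23.0 and 55.8 CPM.

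Among the arterial, glomerular and peritubular endothelial classes, the arterial one had the highest Ace level in each library. That order rests on 2 to 14 arterial UMIs, and the differences between classes were not tested. Over all endothelial cells it was 12.3 CPM in sham (6 UMIs), 27.6 at day 2 (18 UMIs, 16.3 to 43.6), 7.51 at day 7 (13 UMIs, 4.00 to 12.8) and 9.99 in the reversed library (15 UMIs, 5.59 to 16.5). The log2 ratio of day 7 to day 2 was -1.75 (-2.77 to -0.71), past the 2-fold limit, as was Enpep in the other direction; of 8184 endothelial genes 6.84% were higher, 2.77% lower and 9.62% in either direction. Arterial cells held 31.8, 55.8, 23.0 and 53.7 CPM on 2, 14, 5 and 7 UMIs, glomerular cells 14.0, 22.7, 7.84 and 9.03, and peritubular capillary cells 0, 0, 3.77 and 4.38. Arterial cells were 47 of 150 endothelial cells at day 2 and 44 of 447 at day 7. Stromal cells of the fibroblast group had Ace as well: 5 UMIs in 57 cells at day 7 (12.0 CPM, 3.90 to 28.0) and 19 UMIs in 65 cells in the reversed library (38.3 CPM, 23.0 to 59.8), while mural cells had 0 UMIs in all 4 libraries. Of those 19 UMIs, 8 lay in cells with a UMI of Ncam1, a gene detected in 58 of the 109 reversed stromal cells and in 0 of 18 in sham, and the part of this in the Ace level was not tested.

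By likeness of pattern Ace was nearest to C1d, which codes for a nuclear exosome cofactor (r 0.80), Gamt, a creatine synthesis enzyme (0.77), and Preb, a factor of transport from the endoplasmic reticulum (0.75). C1d was more widely present: it lay between 60.9 and 199 CPM in the proximal tubule, loop, collecting duct, intercalated and endothelial cells of the 4 libraries, where Ace ranged from 0 to 56.1.

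The angiotensin receptor was present in the proximal tubule in all 4 libraries and in sham stromal cells at a far higher level. Agtr1a in the proximal tubule was 46.6 CPM in sham (289 UMIs, 41.3 to 52.2), 28.5 at day 2 (59 UMIs, 21.7 to 36.7), 41.7 at day 7 (29 UMIs, 27.9 to 59.9) and 38.8 in the reversed library (161 UMIs, 33.1 to 45.3). Only the day 2 interval lay apart from sham, with a log2 ratio of -0.69 (-1.10 to -0.29) that was short of 2-fold. The interval of the S3 to S1-S2 ratio included 1 in all 4 libraries. The ratio was 0.86 in sham (0.61 to 1.18), 0.58 at day 2, 0.63 at day 7 and 0.70 in the reversed library, below 1 in each. After thinning, 4.36% of sham, 3.36% of day 2, 6.62% of day 7 and 3.25% of reversed proximal tubule cells had an Agtr1a UMI, and 0 lymphocytes did.

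Stromal cells held Agtr1a at 942 CPM in sham (56 UMIs in 18 cells, 711 to 1223), 295 at day 2 (33 UMIs in 19 cells, 203 to 414), 22.0 at day 7 (10 UMIs in 63 cells, 10.6 to 40.5) and 23.4 in the reversed library (21 UMIs in 109 cells, 14.5 to 35.7). The intervals of sham, day 2 and the later pair of libraries did not overlap. Here and in the splits below they cover counting error of UMIs and not which stromal cells each library caught. An Agtr1a UMI was found in 11 of the 18 sham cells and 10 of the 19 day 2 cells. With 1 more marker required of every cell type the level was 712 CPM in 17 sham cells and 469 CPM in 21 day 2 cells. The log2 ratio was -1.67 for day 2 against sham (-2.34 to -1.03), -3.69 for day 7 against day 2 (-4.81 to -2.66) and -5.27 for the reversed library against sham (-6.04 to -4.55). All 3 passed 2-fold downwards, against 10.2%, 8.85% and 14% of all stromal genes tested. With the added marker required, day 2 and sham lay less than 2-fold apart, so the day 2 call did not hold there. In sham the 18 cells had from 0 to 14 Agtr1a UMIs with a median of 2, and in the reversed library the 109 cells had at most 3.

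The kind of stromal cell differed between these libraries. Mural cells were 16 of 18 in sham and 14 of 19 at day 2, but 6 of 63 at day 7, when 57 were fibroblasts, and 44 of 109 in the reversed library. Within mural cells Agtr1a was 949 CPM in sham (53 UMIs, 711 to 1241), 427 at day 2 (28 UMIs, 284 to 617), 78.9 at day 7 (3 UMIs, 16.3 to 231) and 14.9 in the reversed library (6 UMIs, 5.47 to 32.4). Sham stood above the other 3 libraries with no overlap, with log2 ratios of -1.15 at day 2 (-1.86 to -0.47) and -5.90 in the reversed library (-7.27 to -4.73). Cells with a UMI of Itga8, an integrin gene of mesangial and other mural cells, were 14 of 18, 7 of 19, 9 of 63 and 17 of 109. Within the cells with an Itga8 UMI Agtr1a was 1148 CPM in sham (860 to 1502), 982 at day 2 (642 to 1439), 111 at day 7 (44.8 to 230) and 66.7 in the reversed library (30.5 to 127). Within the cells without one it was 225, 82.0, 7.66 and 15.7 CPM. Within Itga8 cells the intervals of sham and day 2 overlapped and those of day 7 and reversal lay below both. Within the cells with an Rgs5 UMI Agtr1a was 489 CPM in sham (285 to 783) and 381 at day 2 (253 to 550), which overlapped. In such cells it had 0 UMIs in 18 cells at day 7 and stood at 33.5 CPM in the reversed library (12.3 to 72.8). In the reversed library 58 of the 109 stromal cells had a UMI of Ncam1, a gene with 0 UMIs in the 18 sham stromal cells, and 39 had one of Wt1. Among the reversed mural cells 29 of 44 had an Ncam1 UMI, and Itga8 was 32.3 CPM against 573 in sham mural cells. Leaving out cells with Ncam1, Agtr1a was 54.7 CPM in the reversed library (32.4 to 86.4) and 33.7 at day 7 (13.5 to 69.4). The part of this makeup in the lower level was not tested. The Itga8, Rgs5 and Ncam1 splits were chosen after the values had been seen.

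Cells that reached the stromal list with another list held Agtr1a too, and they were outside the sums above. At day 2, 5 cells that reached the endothelial and stromal lists had 23 UMIs, 2 that also reached the podocyte list had 25, and 1 podocyte and stromal cell had 7. In sham, 3 endothelial and stromal cells had 19, 1 that also reached the podocyte list had 7, and 2 podocyte and stromal cells had 6. In sham 1 loop and stromal cell had 5, and 2 proximal tubule and stromal cells had 8. Over all gates the pattern of Agtr1a was most like that of Syt12, a synaptotagmin (r 0.86), Htra1, a secreted serine protease (0.86), and Fmo2, a monooxygenase (0.85). The sham and day 2 stromal cells were too few to enter that ranking.

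Aminopeptidase A was level among the cells that reached the proximal tubule list and not in the capillaries. Enpep in the proximal tubule was 65.6 CPM in sham (407 UMIs, 59.3 to 72.3), 62.7 at day 2 (130 UMIs, 52.4 to 74.5), 71.9 at day 7 (50 UMIs, 53.4 to 94.8) and 70.7 in the reversed library (293 UMIs, 62.8 to 79.2). All 4 intervals overlapped. The log2 ratio of day 2 to sham was -0.06, with an interval of -0.35 to 0.22, and that of reversal to sham was 0.11 (-0.11 to 0.32). Between segments the ratio of S3 to S1-S2 was from 1.09 to 1.23, and all 4 intervals included 1. Tubule cells with injury markers and no other identity had less: 32.3 CPM at day 2, 8.96 at day 7 and 22.4 in the reversed library.

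Peritubular capillary endothelium held Enpep at 129 CPM in sham (23 UMIs in 83 cells, 81.8 to 194), 11.6 at day 2 (2 UMIs in 47 cells, 1.40 to 41.8), 23.6 at day 7 (25 UMIs in 282 cells, 15.3 to 34.8) and 48.2 in the reversed library (44 UMIs in 203 cells, 35.0 to 64.7). Sham stood above every other library with no overlap. The log2 ratio was -3.37 for day 2 against sham (-5.85 to -1.44) and -1.40 for reversal against sham (-2.15 to -0.62). From day 7 to reversal it was 1.00 (0.28 to 1.74), which just reached the 2-fold limit. Over all endothelial cells the day 2 ratio was -2.93 (-4.47 to -1.53), where 3.73% of 5715 genes were higher past 2-fold, 4.09% lower and 7.82% in either direction. Over all endothelial cells Enpep, the 1 gene tested, was not past 2-fold from day 7 to reversal (1.7% of 9128 genes higher, 1.52% lower, 3.22% in either direction). Nor was it in the reversed library against sham (7.01% of 7799 higher, 2.73% lower, 9.74% in either direction). Rgs5 and Pdgfrb, pericyte genes, had 0 UMIs in the sham peritubular cells, 0 and 1 at day 2, and 4 and 2 both at day 7 and in the reversed library. Other genes of the peritubular cells also differed between sham and day 2. Plpp3 was 1677 and 566 CPM, Npr3 163 and 80.9, Igfbp3 1706 and 3803, and Plvap 4073 and 3681. The part of this in the Enpep level was not tested. Glomerular endothelium lay between 5.67 and 14.0 CPM.

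Podocytes, the filtration cells, gave the highest Enpep levels on very few cells: 1364 CPM in 2 sham cells, 1315 in 4 day 2 cells, 763 in 1 day 7 cell and 926 in 3 reversed cells, on 15, 20, 4 and 22 UMIs. Mural cells held 89.5, 61.0, 158 and 117 CPM, of which the reversed value rested on 47 UMIs and the others on 4 to 6. Of the 44 reversed mural cells 20 had an Rgs5 UMI, 29 an Ncam1 UMI and 24 a Wt1 UMI, against 9, 0 and 5 of the 16 sham mural cells, and the part of this in the Enpep level was not tested. In the reversed stromal cells 49 of 55 Enpep UMIs lay in the cells with an Ncam1 UMI. Genes with the most similar pattern were Htra1 (r 0.84), Asxl3, a polycomb-associated gene (0.83), and Nrxn2, a neurexin (0.83).

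**Figure D5:**
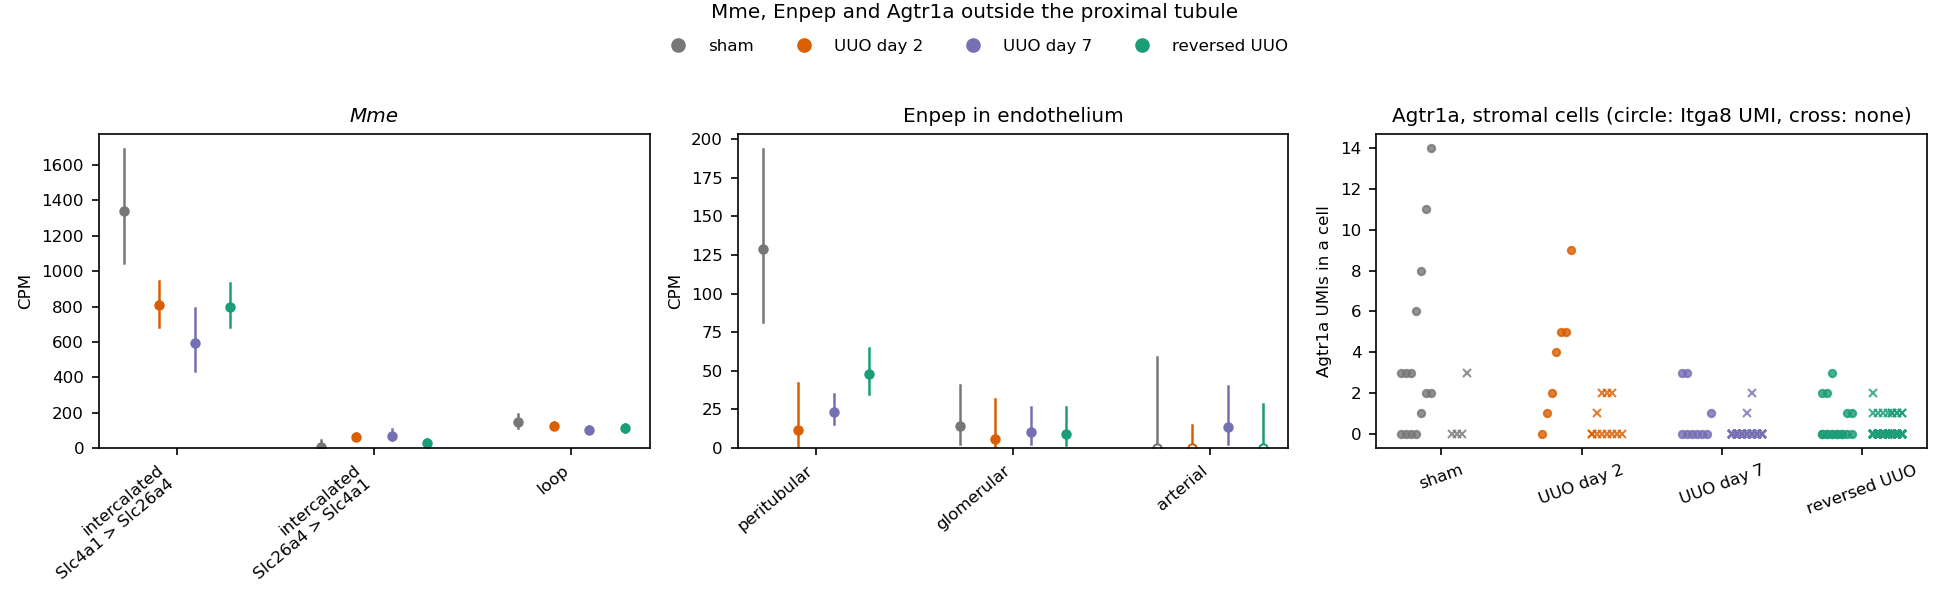
Mme in intercalated cells split by Slc4a1 and Slc26a4 UMIs and in loop cells (left), Enpep in 3 endothelial classes (middle), both in CPM with exact Poisson 95% intervals, and Agtr1a UMIs in single stromal cells (right; circles have an Itga8 UMI, crosses have none). Mme reaches 1338 CPM in the sham Slc4a1 cells, Enpep in peritubular cells is 129 CPM in sham against 11.6 at day 2, and Agtr1a reaches 14 UMIs in a sham cell and 3 in the reversed library.

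Neprilysin was a gene of the intercalated cells and the loop before the proximal tubule. Intercalated cells, which handle acid and base in the collecting duct, had Mme at 393 CPM in sham (71 UMIs in 34 cells, 307 to 496), 269 at day 2 (280 UMIs in 116 cells, 239 to 303), 265 at day 7 (173 UMIs in 91 cells, 227 to 307) and 338 in the reversed library (228 UMIs in 84 cells, 295 to 384). Their log2 ratio of day 2 to sham was -0.54 (-0.92 to -0.15), short of 2-fold. Loop of Henle cells stood at 149, 127, 102 and 113 CPM, and the intervals of their 4 ratios included 0. Proximal tubule cells had 19.3 CPM in sham (120 UMIs, 16.0 to 23.1), 11.6 at day 2 (24 UMIs, 7.42 to 17.2), 34.5 at day 7 (24 UMIs, 22.1 to 51.4) and 21.7 in the reversed library (90 UMIs, 17.5 to 26.7). In all 4 libraries the 3 cell types kept the order intercalated, loop, proximal tubule, with no overlap of neighbouring intervals.

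Within the intercalated cells Mme went with the type A marker. Cells were split by Slc4a1, the anion exchanger of acid-secreting type A cells, against Slc26a4, pendrin of the base-secreting type B cells, a split chosen after the values had been seen. In sham, 13 cells with more Slc4a1 had 70 Mme UMIs (1338 CPM, 1043 to 1691), with at least 1 UMI in all 13, and 20 cells with more Slc26a4 had 1 UMI. At day 2 the levels were 808 CPM (686 to 945) and 60.9 CPM (43.5 to 83.0), at day 7 593 (434 to 791) and 70.2 (42.9 to 108), and in the reversed library 800 (684 to 930) and 29.4 (14.7 to 52.5). The Slc4a1 cells were higher in each library with no overlap, and their sham level lay above the other 3 libraries. Cells with equal counts of both were 22 of 116 at day 2 and 43 of 91 at day 7, and held 443 and 367 CPM.

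Mme in the proximal tubule was another S3 transcript in 3 of the libraries. S3 cells had 47.0 CPM in sham, 16.2 at day 2, 51.1 at day 7 and 45.7 in the reversed library, and S1-S2 cells 13.5, 10.4, 9.16 and 16.6. The S3 to S1-S2 ratio was 3.47 in sham (2.36 to 5.09), 5.58 at day 7 (1.37 to 49.0), 2.76 in the reversed library (1.74 to 4.30) and 1.56 at day 2 with an interval that included 1 (0.50 to 4.19). Over the whole proximal tubule the log2 ratio of day 7 to day 2 was 1.50 (0.66 to 2.32), and within S3 it was 1.60 (0.30 to 3.06) on 22 and 6 UMIs. The 1 podocyte of day 7 had 10 Mme UMIs. Injured tubule cells held 80.8, 69.1 and 78.4 CPM at day 2, at day 7 and in the reversed library. The genes most like Mme were Gnaz, a G protein subunit (r 0.87), Glt1d1, a glycosyltransferase-like gene (0.86), and Pclo, a presynaptic scaffold gene (0.85). In sham, Pclo was 55.4 CPM in intercalated cells, 60.2 in the loop and 6.28 in the proximal tubule.

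Beyond the 6 genes, 18 others of the system were counted. In the proximal tubule 11 of them had enough UMIs at day 2 against sham and 1 passed 2-fold, Klk1, which was lower; Klk1 was also the 1 of 7 past it at day 7 against day 2. From day 7 to reversal Klk1 and Thop1 were higher among 11 tested, and against sham the reversed library had 0 of 11 past 2-fold. Over all genes tested in the proximal tubule the shares past 2-fold in either direction were 8.42%, 8.29%, 9.51% and 7.36% in the same order. The medians of the list were -0.12, -0.26, 0.25 and 0.10 on the log2 scale, beside 0.07, 0.06, -0.02 and 0.13 over all genes tested. Klk1, tissue kallikrein, was 142, 57.4, 21.6 and 95.8 CPM in the proximal tubule and 4936, 2134, 2023 and 3136 CPM in loop cells, and the part of free RNA from such cells in the proximal tubule value was not tested. In intercalated cells Klk1 was 4004 CPM in sham, 2133 at day 2, 133 at day 7 and 964 in the reversed library. Thop1, thimet oligopeptidase, was 4.32 CPM at day 7 on 3 UMIs and 13.5 in the reversed library. With Klk1, the list genes with the most UMIs in the proximal tubule were Ctsa, a lysosomal carboxypeptidase, at 177 to 211 CPM, and Atp6ap2, the prorenin receptor, at 79.1 to 123 CPM. Atp6ap2 in intercalated cells was 1246 CPM in sham and 394, 390 and 699 CPM in the libraries that followed, with no overlap of sham with the rest. In phagocytes Ctsa stood at 292 to 443 CPM and Prcp, a lysosomal carboxypeptidase that also cuts angiotensin II, at 162 to 201 CPM. Of 10 list genes tested in phagocytes, Thop1 was higher and Klk1 lower past 2-fold at day 2 against sham, and Anpep, an aminopeptidase, was higher and Klk1 lower in the reversed library against sham (28.9% and 24.4% of all genes in either direction). The Thop1 and Anpep calls rested on 1 and 2 sham UMIs, and the intervals of their ratios included 0. From day 2 to day 7 and from day 7 to reversal 0 of 10 were past 2-fold (12.8% and 3.34%). In endothelium Prcp was the 1 of 5 past 2-fold at day 2 against sham, at 91.9 against 28.7 CPM (7.82%), and 0 of 5 were at day 7 against day 2 (9.62%). Klk1 and Lnpep, an aminopeptidase that binds angiotensin IV, were the 2 of 7 higher from day 7 to reversal (3.22%), and 0 of 6 were past 2-fold in the reversed library against sham (9.74%). In stromal cells 0 list genes had enough UMIs at day 2 against sham, and 0 of 2 and 0 of 6 were past 2-fold in the comparisons that followed (25.5% and 12.2%). Agtrap, which binds the angiotensin receptor, and Atp6ap2 were the 2 of 5 lower in the reversed stromal cells against sham (37.1%), Atp6ap2 at 70.1 against 252 CPM. The genes past 2-fold outside the proximal tubule were named after their values were seen.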

How the data were processed

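For each droplet library the authors deposited a matrix of UMI counts that were not normalized, and for the Smart-seq2 plates a table of read counts by well; live cells of kidneys digested on ice were sorted before 3′ library preparation, per the labels' protocols. Cell Ranger, STAR, GRCm38 and mm10 are named in the submitters' processing notes, without versions or roles. A cell was kept if it had 200 or more genes and no more than 50% of its UMIs from mitochondrial transcripts, and the highest Scrublet scores (scanpy 1.11.5) were removed as doublets at 0.8% per 1000 deposited cells. This left 3746 sham, 2159 day 2, 4287 day 7 and 3140 reversed cells, and 10818487 to 28760053 nuclear UMIs lay in the deposited cells of a library.

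A cell entered a group by the number of its markers detected: 8 of 18 for proximal tubule, together with 80 marker UMIs per 10000, 4 of 17 for stromal, 6 of 15 for endothelial, 7 of 11 for phagocytes and 5 of 9 for patrolling monocytes. These limits were set after the counts of markers per cell had been seen. The 6 genes, the gene lists and the markers were chosen with earlier results of these data known. UMIs were summed per group and library. Intervals are exact Poisson for CPM, exact Clopper-Pearson for shares and exact conditional binomial for ratios, which carry a pseudocount of 1 CPM on the log2 scale and understate differences of low genes; where nothing was counted, the limit is 3 counts. The counting was checked on simulated data. Genes named beyond the 6 are those of the 18-gene list past 2-fold in the proximal tubule or among the 3 with the most UMIs there or in phagocytes, and the 3 most similar in pattern to each gene; Fga, Fgg and the list genes past 2-fold only in other groups (Anpep, Lnpep and Agtrap) were added after their values had been seen. The 3 most similar to Ren1 had r of 0.58 to 0.61 and are not described. The remaining genes of the list enter the counts and medians only, without values of their own. Alternatives were TMM (edgeR 4.0.16) and DESeq2 1.42.0 factors, all UMIs in the total, no doublet removal, a 20% mitochondrial limit, stricter marker limits, equal weight per cell, a pseudocount of 10, no thinning and no minimum of UMIs; a proximal tubule limit of 40 marker UMIs was added after seeing the data. Scripts ran under R 4.3.3 and Python 3.11.15 with scipy 1.17.1, matplotlib 3.10.9, pandas 2.3.3 and numpy 2.4.6. Gene coordinates were taken from GENCODE annotation of GRCm38 and promoters from RefSeq.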

Additional observations from a re-analysis of the deposited data

Results flagged for a closer look

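Ace also appeared in the Smart-seq2 wells, which enter no comparison above. Of 379 wells with at least 100000 gene reads, 60.5% of the 114 that showed 6 or more patrolling monocyte markers had an Ace read (Clopper-Pearson 50.9 to 69.6%), 31.1% of the 196 with 3 to 5, and 8.70% of the 69 with 0 to 2. Ace was 141, 6.29 and 2.80 CPM in the same order, and the median well held 1.47 CPM in the first class and 0 in each of the others. By plate the first class ran from 0 to 465 CPM. It stood above the last class on 7 of 8 plates, of which 1 had 1.10 CPM against a single well at 0, and on the remaining plate both classes were at 0. The interval of the share is binomial over wells, which were pooled over 8 plates and mixed time points and are not replicates. By plate the share in the first class ran from 0 of 2 to 11 of 14 wells. Reads carry no molecular identifiers and are not counts of molecules. Over all 768 wells Agt had 10 reads and Ren1 1.

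The log2 ratios of Ace had opposite signs in different cell groups under the same comparison, and these differences between groups were not tested. From sham to reversal the ratio was -1.56 in phagocytes (-2.76 to -0.11), past 2-fold on 6 sham UMIs, and 0.43 in the proximal tubule (0.04 to 0.81), short of it. From day 7 to reversal it was -1.16 in the proximal tubule (-1.69 to -0.60), past 2-fold, and 0.58 in phagocytes (0.08 to 1.07), short of it. From day 2 to day 7 it was past 2-fold at -1.75 in endothelium (-2.77 to -0.71) and 1.60 in the proximal tubule (0.93 to 2.26), and short of it at -0.59 in phagocytes (-1.03 to -0.14). Each of the 3 groups changed in makeup as well, in the shares of patrolling, arterial and S3 cells given above, and the part of that was not tested.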

How the results depend on the processing

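Of 288 values under an alternative, 264 stayed within their interval or count limit, 24 moved and 0 changed sign among called values. TMM and DESeq2 factors, all UMIs in the total, no doublet removal, equal weight per cell and the added proximal tubule limit moved none; TMM shifted all proximal tubule genes by -0.09, -0.10, 0.02 and -0.17 in the 4 comparisons. With a pseudocount of 10 CPM the Agt log2 ratio to sham was 2.41 on day 2 and 1.19 after reversal. With the 20% mitochondrial limit the Enpep log2 ratio was 0.72 for day 7 against day 2 and -0.53 for reversal against day 7. Stricter marker limits gave Ace in patrolling monocytes 379 CPM on day 2 and 352 on day 7, and in day 2 stromal cells 4198 CPM for Ren1 and 469 for Agtr1a, on 21 cells. Under these limits stromal Agtr1a on day 2 was less than 2-fold below sham, so that call was lost. Without thinning, shares were 22.3% on day 2, 14.6% on day 7 and 7.33% after reversal for Agt, 8.70%, 10.7%, 17.2% and 13.6% in order of the libraries for Agtr1a, and 37.9% on day 2 and 52.4% on day 7 for Ace in patrolling monocytes. With at least 1 UMI in place of 30, genes past 2-fold in the proximal tubule were 1760, 2942, 2457 and 1571 in place of 820, 628, 883 and 764, other renin-angiotensin genes 3 in place of 1 on day 7 against day 2, and phagocyte genes 5312 on day 2 and 5608 after reversal, each against sham, in place of 2552 and 2105. The causes of these moves were not tested. No paired analysis was possible because each group had 1 library. Sham stromal, patrolling and podocyte levels rest on 18, 7 and 2 cells, which limits what depth can show there.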
